A study of Ascaris suum with 62 samples.

Results

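The comparison was between the CENP-A peak lists of ovary1 and ovary2, 2 numbered samples of the ovary of *Ascaris suum*, the roundworm of pigs. CENP-A ChIP-seq sequences the DNA that comes down with CENP-A, the form of histone H3 that marks centromeric chromatin. Every peak of both deposited tables was taken, 11974 from ovary1 and 9630 from ovary2, which together are 21604 of the 163819 peaks in the 12 CENP-A lists of the series. The series lists 62 samples, and 4 CENP-A libraries are compared here. Each list has 2 libraries, 1 single-end and 1 paired-end, per the labels. The table columns are headed rep1 and rep2, and the headers do not say which is which. They call the values coverage, which was taken here as reads. The labels give ovary as the tissue of both groups, no treatment, and no strain, age, number of animals or pooling. They do not say which part of the ovary the numbers stand for, so the groups are called by their labels. The tables hold no measure of ovary marker genes, so the tissue was not checked against markers.

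Nematode chromosomes carry centromeric chromatin along much of their length rather than at a single point, so CENP-A appears as many peaks spread over each chromosome. *Ascaris* germ cells keep the whole genome, while cells that will form the body discard part of it in early cleavage, a process called programmed DNA elimination. The ovary is a long tube in which germ cells pass from mitosis through meiosis to oocytes. In *Caenorhabditis elegans*, another nematode, CENP-A is taken off and loaded again during germ cell development. The authors marked each peak as lying in retained or in eliminated DNA.

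Ovary1 had more peaks and more DNA in peaks than ovary2. Its peaks covered 28.8 Mb, against 21.7 Mb in ovary2. Cover, the percent of a region inside peaks, was 10.1% in ovary1 and 7.63% in ovary2 over the 284 Mb that the peaks of all lists span. Typical peaks were of like size, with a median width of 1571 bp in ovary1 and 1656 bp in ovary2. Broad peaks were more numerous in ovary1, where 248 peaks were at least 10000 bp wide, against 99 in ovary2. The median gap between neighbouring peaks was 5807 bp in ovary1 and 6290 bp in ovary2. The libraries held 3172504 and 1656017 reads in peaks in ovary1 (rep1 and rep2) and 1484418 and 1866565 in ovary2. A median ovary1 peak held 137 and 70 reads, and a median ovary2 peak 99 and 124. Each stage has 1 list for both libraries, so peak numbers, widths and overlaps have no replicate and no test. The 2 columns of ovary1 followed each other more closely, with a correlation of log read density of 0.866 over peaks of at least 200 bp, against 0.720 in ovary2. Nothing says that the libraries of a list came from separate animals, so tests between libraries measure a spread that may be technical.

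Fewer than 60% of the peaks of either list lay at a site of the other. With any overlap counted (at least 1 bp), 5307 ovary1 peaks (44.3%) met an ovary2 peak, and 5553 ovary2 peaks (57.7%) met an ovary1 peak. The DNA in peaks of both lists amounted to 11.6 Mb, which is 40.1% of the ovary1 peak length and 53.3% of that of ovary2. The Jaccard index, shared length over joint length, was 0.297, and the unequal covered lengths allow at most 0.752. When each list was cut to its densest peaks up to the same covered length, the lists shared 46.6% of the length of each. For reference, all peaks of ovary1 and of ovary2 were also paired with each of the other 10 CENP-A lists. Only testis1 with ovary1 (Jaccard index 0.422) and ovary3 with ovary2 (0.298) exceeded the 0.297 of ovary1 with ovary2. All other such pairs had 0.182 to 0.266. The most that the covered lengths allow differs between pairs.

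**Figure D1:**
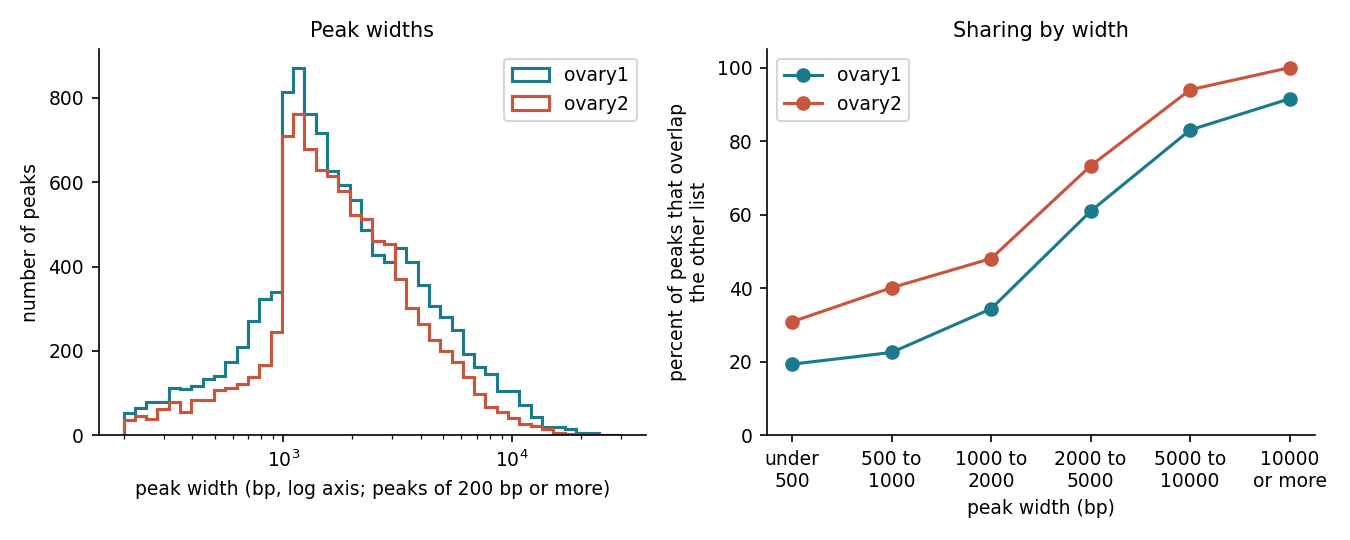
Left, number of peaks by width (bp, log axis) in ovary1 and ovary2, for peaks of 200 bp or more. Right, percent of peaks of each width class that overlap a peak of the other list; the percent rises with each wider class, to 91.5% in ovary1 and 100% in ovary2 at 10000 bp or more.

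Wide peaks were mostly common to both lists and narrow peaks mostly were not. Of ovary1 peaks under 500 bp 19.4% were shared, of those between 2000 and 5000 bp 60.9%, and of those of at least 10000 bp 91.5%. The same classes in ovary2 gave 30.9%, 73.3% and 100%. A wide peak has more room to meet another, and the part of width alone in this rise was not tested. Shared peaks had median widths of 2525 bp in ovary1 and 2164 bp in ovary2, and peaks found in 1 list only had 1218 and 1268 bp. Read density here is reads per kb of peak, scaled to 1000000 reads in peaks of the library. Shared peaks of ovary1 had a median density of 30.4, against 26.2 in its list-only peaks (peaks of at least 200 bp). In ovary2 these medians were 42.2 and 38.1. Both libraries of each list had the higher median in shared peaks. Shared peaks held 67.9% and 67.8% of the reads in peaks of the ovary1 libraries and 75.9% and 72.9% of those of ovary2.

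The overlaps joined peaks of the lists into 4689 shared clusters, of which 3572 (76.2%) paired a single peak of each. In 577 clusters a single ovary1 peak met several ovary2 peaks, in 406 the reverse held, and 134 had several peaks of each list. In the single pairs the ovary1 peak was the wider in 2058 and the ovary2 peak in 1512, and the median centre-to-centre distance was 535 bp. List-only peaks of ovary1 lay far from ovary2 more often than the reverse. Of ovary1-only peaks 35.5% were more than 20 kb from any ovary2 peak or on a scaffold without one, against 19.7% of ovary2-only peaks. The ovary2 list is also the shorter, and the part of list size in this gap was not tested.

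The 10 lists that took no part in the choice were then read at these sites, and they divided the 2 kinds of list-only DNA. DNA in ovary1 peaks only was inside testis1 peaks over 61.4% of its length, and DNA in ovary2 peaks only over 32.5%. The order was the opposite in ovary3, which covered 26.4% of ovary1-only DNA and 65.2% of ovary2-only DNA. It was also the opposite in 0hr embryos, which are zygotes taken from the uterus, with 35.5% and 73.3%. Over the whole span testis1 covers 13.5%, ovary3 15.3% and 0hr 21.0%. DNA in peaks of both lists was covered at 81.0% in testis1, 72.5% in ovary3 and 77.1% at 0hr.

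The excess at ovary2-only over ovary1-only DNA was 37.7 percentage points at 0hr, 25.0 at 46hr, 16.1 at 60hr and 8.19, 7.15 and 6.62 at 5day, 7day and in L1 larvae. It was -28.9 in testis1, -4.87 in testis2 and -4.99 in testis3. Covered length differs between lists, so each was also cut to its densest peaks up to 19.0 Mb. Testis1 then covered 54.3% of ovary1-only and 14.8% of ovary2-only DNA, and ovary3 13.5% and 45.1%. The 5day, 7day and L1 lists then differed by 2.73, 0.421 and 1.37 points. Each of these is 1 list, so the differences have no replicate and no test.

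**Figure D2:**
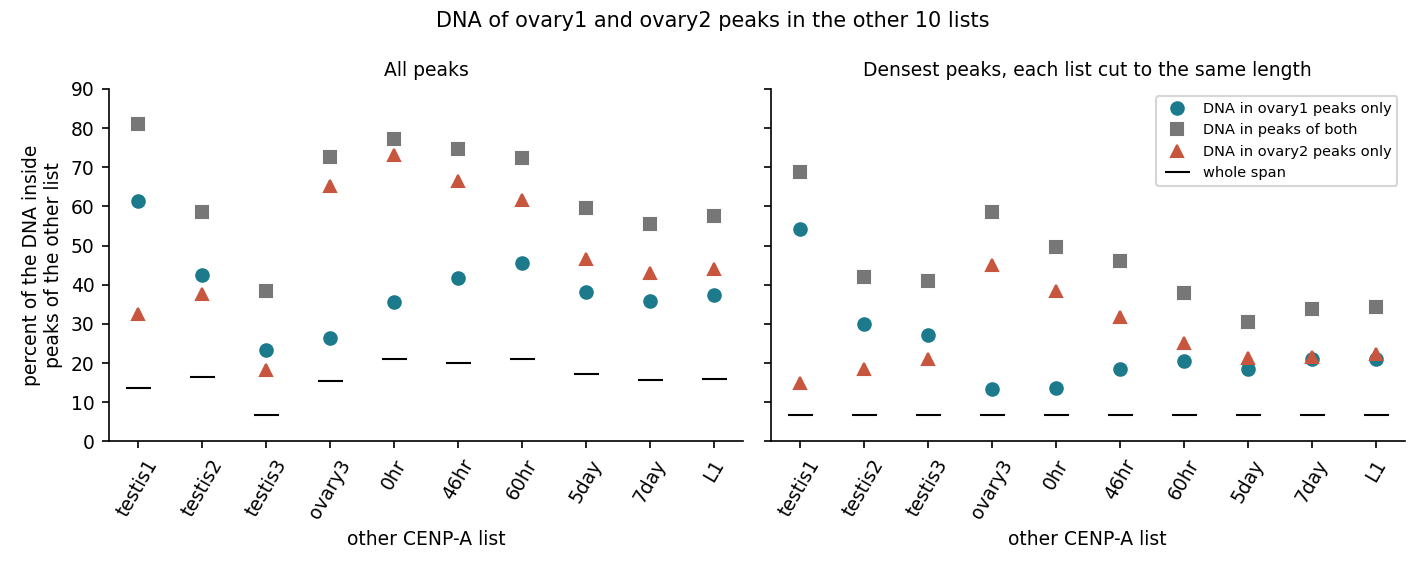
Percent of DNA in ovary1 peaks only (circles), in peaks of both (squares) and in ovary2 peaks only (triangles) that lies inside peaks of each of the other 10 CENP-A lists, with the cover of the whole span as a dash; left all peaks, right each list cut to the same covered length. Circles lie above triangles in the 3 testis lists and below them in ovary3 and 0hr in both panels.

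Counted by peak, 54.5% of ovary1-only and 31.2% of ovary2-only peaks met a testis1 peak, and 32.1% and 71.9% an ovary3 peak. Of the 6667 ovary1-only peaks, 2381 (35.7%) met a testis1 and no ovary3 peak, and 887 (13.3%) an ovary3 and no testis1 peak. Of the 4077 ovary2-only peaks these were 325 (7.97%) and 1987 (48.7%). Both were met by 18.8% of ovary1-only and 23.2% of ovary2-only peaks, and neither by 32.2% and 20.1%. Shared peaks were mostly common ground: 68.1% of those of ovary1 met both. A shared ovary1 peak met a median of 8 of the other 10 lists, an ovary1-only peak 4 and an ovary2-only peak 5. Shared peaks are also wider, and the part of width alone in these overlaps was not tested. Peaks found in none of the other lists numbered 749 (11.2%) among ovary1-only and 123 (3.02%) among ovary2-only peaks, against 12 and 17 among shared peaks of ovary1 and ovary2.

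Windows of 20 kb show where the lists part along the scaffolds. Of 14358 windows, 4534 (31.6%) held peaks of both lists, 2502 (17.4%) of ovary1 only, 1239 (8.63%) of ovary2 only and 6083 (42.4%) of neither. Cover was at least 30 percentage points higher in ovary1 in 522 windows, 3.64% of all, and in ovary2 in 142 windows, 0.989%. Among windows in eliminated blocks these shares were 1.53% (10 of 652) and 0.307% (2 of 652), below those of all windows. The windows were mostly scattered. They formed 465 separate runs for ovary1, of which 46 were longer than 1 window, and 134 for ovary2, of which 7 were. At least 50% of the window was in peaks in 579 windows in ovary1 and 308 in ovary2, and 162 were common to both. Over all windows, cover in the 2 lists correlated at 0.665, a description over windows that are not independent.

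The longest run that favoured ovary1 was on scaffold 125 (AgBionano_v1.9 assembly, 240001 to 320000, retained), with 53.6% cover in ovary1 and 0.660% in ovary2. Peaks there held 13176 and 6763 reads in the ovary1 libraries and 88 and 76 in those of ovary2. The 3 testis lists covered the region at 65.7% to 75.0%, ovary3 at 20.9%, 0hr at 5.76% and the 5day, 7day and L1 lists at 45.9% to 55.8%. Both ovary1 libraries were thus high, and the ovary2 list called almost no peak in a region that the testis and late lists also cover.

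The next 4 runs of ovary1, of 60 kb each, had no ovary2 peak at all and did not follow a common course in other lists. Scaffold 100 (220001 to 280000) had 64.1% cover in ovary1, none in ovary3 or at 0hr, 76.4% in testis1 and 87.6% in L1. On scaffold 123 (20001 to 80000) cover was 44.5% in ovary1, 66.4% in testis1, 27.8% in testis2, 0% in ovary3 and at most 9.38% in embryo and L1 lists. Scaffold 131 (360001 to 420000) had 52.0% in ovary1, 54.1% to 65.1% in testis lists and 39.0% in ovary3. Scaffold 52 (180001 to 240000) went the other way in testis, with 44.4% in ovary1 and at most 8.64% in any testis list, no cover in ovary3 or at 0hr, and 43.3% to 62.8% from 60hr on.

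The longest run that favoured ovary2 was on scaffold 24 (1140001 to 1200000), with 50.3% cover in ovary2 and 11.9% in ovary1. Its peaks held 647 and 339 reads in the ovary1 libraries and 1767 and 2718 in the ovary2 libraries. Cover was 58.3% in ovary3, 68.7% at 0hr and 56.4% to 71.6% in later lists. The other 4 runs, each of 40 kb, lay on scaffolds 29 (300001 to 340000), 93 (800001 to 840000), 194 (180001 to 220000) and 100 (620001 to 660000). They had 35.6% to 44.2% cover in ovary2 and 0% to 5.23% in ovary1, and all 4 had 33.8% to 58.4% in ovary3 and 47.4% to 67.8% at 0hr. Testis cover of these 5 runs was mixed: testis1 covered 7.13% to 39.2%, and testis2 72.1% on scaffold 24, 86.1% on scaffold 93 and 2.46% to 35.7% on the other 3. Scaffold 100 thus carried a run of each kind.

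Among scaffolds with a peak in either list, most had more cover in ovary1. Of 600 scaffolds 291 had more cover in ovary1 and 75 in ovary2, and 234 had no peak in either. Both lists had peaks on 273 scaffolds, ovary1 alone on 56 and ovary2 alone on 37. Among the 223 scaffolds of at least 200 kb, cover in the lists correlated at 0.727.

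**Figure D3:**
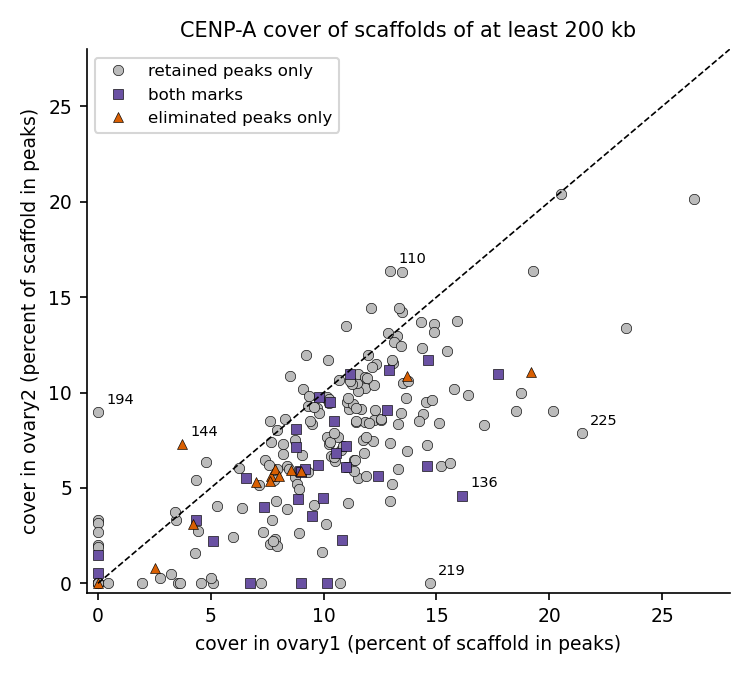
Percent of each scaffold of at least 200 kb inside ovary1 peaks (x) and ovary2 peaks (y), by the marks of its peaks; the dashed line is equal cover. Most scaffolds lie below the line, and scaffolds 219 and 194, with peaks in a single list, lie on the axes.

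Of the long scaffolds the widest gap was on scaffold 219 (213 kb, retained), where 6 ovary1 peaks covered 14.7% and ovary2 had none. These peaks held 2720 and 1478 reads in the ovary1 libraries. The scaffold was covered at 14.7% in testis1, had no peak in ovary3, and was covered at 6.87% at 0hr and 13.5% at 60hr. Scaffold 225 (204 kb, retained) had 21.4% in ovary1 and 7.87% in ovary2, and scaffold 136 (448 kb, both marks) 16.1% and 4.60%. In the other direction scaffold 194 (265 kb, retained) had 10 ovary2 peaks over 8.99% of its length and no ovary1 peak. Its peaks held 1825 and 2151 reads in the ovary2 libraries, and cover was 14.4% in ovary3 and 17.4% at 0hr. Scaffold 144 (426 kb), on which every peak of the series is marked eliminated, had 3.71% in ovary1 and 7.30% in ovary2, and scaffold 110 (670 kb, retained) 13.0% and 16.4%.

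The longest peaks of a single list were wider in ovary1, with the 5 longest between 12987 and 17856 bp against 7914 to 9608 bp in ovary2. The longest, on scaffold 13 (861923 to 879779), held 1890 and 1040 reads and lay wholly inside testis1 peaks, with 12.4% of it in ovary3. The peaks of scaffold 21 at 2315850 to 2333067 and 2281007 to 2294024 lay wholly in testis1 and testis2 peaks and in no peak of ovary3, 0hr, 46hr or 60hr. The other 2 differed from these: that on scaffold 219 (36823 to 50174) was covered at 90.9% in testis1, 0% in testis2 and ovary3, 61.2% at 0hr and 99.1% at 46hr, and that on scaffold 146 (138569 to 151556) at 85.8% in testis1, 0% in testis2 and 78.8% in ovary3. The longest ovary2-only peak, on scaffold 194 (199122 to 208730), held 631 and 787 reads and lay wholly in ovary3 and 0hr peaks. All 5 of the longest ovary2-only peaks were covered at 84.3% to 100% in ovary3 and 74.5% to 100% at 0hr.

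Read density at shared sites asks whether a site that both lists hold carries more CENP-A reads in one of them. Density is relative to the reads in peaks, so it falls as more DNA is called: the mean over all peaks is 34.7 in ovary1 and 46.1 in ovary2 by construction. Fitted log2 differences (ovary2 minus ovary1) of the 4689 clusters had a median of 0.42, in the direction of this shift. The part of covered length in that median was not tested. With libraries scaled to their reads in peaks, 1937 clusters (41.3%) were higher in ovary2 and 59 (1.26%) in ovary1 (edgeR's quasi-likelihood test, Benjamini-Hochberg adjusted p under 0.05, 2 libraries against 2). With TMM factors, which centre the clusters on one another, the count was 75 (1.60%) higher in ovary2 and 113 (2.41%) in ovary1, so clusters higher in ovary1 went from 2.96% to 60.1% of calls. The libraries of the lists did not overlap in 74.4% of clusters, most of them in the direction of the shift. A fit without a library takes its spread from the pair of the other list alone. The ovary2 pair spread more than the ovary1 pair (SD of the log2 ratio of rep1 to rep2 0.385 against 0.245 over clusters). The median log2 difference was 0.44 without ovary1 rep1 and 0.42 without ovary1 rep2. With libraries scaled to reads in peaks, no cluster passed adjustment without ovary1 rep1 or without ovary1 rep2 (0 in each direction by edgeR, with 1388 and 1423 clusters under an unadjusted p of 0.05). Without ovary2 rep1 those higher in ovary1 rose to 263. With TMM factors the counts higher in ovary1 and in ovary2 were 0 and 0 without ovary1 rep1, 19 and 6 without ovary1 rep2, 672 and 599 without ovary2 rep1, and 167 and 120 without ovary2 rep2.

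The widest fitted differences came from peaks a few bases wide. The 5 clusters with the widest fall to ovary2 (log2 differences of -4.24 to -3.49) had ovary1 peaks of 7 to 19 bp facing ovary2 peaks of 1107 to 4747 bp. Of the 5 with the widest rise (3.50 to 4.64), 4 had ovary2 peaks of 10 to 18 bp. Reads that reach into so narrow a peak are divided by a very short length. In 9 of these 10 clusters the sign turned when reads were not divided by peak length, and the list of 3 each way with at least 200 bp in both lists that follows was chosen after these values were seen.

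Among wider clusters the largest excess in ovary1 was on scaffold 178 (104136 to 107130, eliminated), with densities of 106 and 167 in the ovary1 libraries and 48.6 and 50.8 in the ovary2 libraries. Its log2 difference was -1.43 ± 0.22 (SE), or -1.85 relative to the median of all clusters (edgeR adjusted p = 0.00764 with reads in peaks and 0.00398 with TMM factors). Its reads per cluster, not divided by length, were instead higher in ovary2, since the ovary2 peak is wider (2994 against 689 bp). The cluster on scaffold 104 (673036 to 676207, retained) had 104 and 167 against 75.0 and 50.8, and that on scaffold 55 (1558322 to 1559801, retained) 50.7 and 44.0 against 22.8 and 22.1. The 3 with the largest excess in ovary2 owed its size to the rep2 library. Without that library their log2 differences were 1.73, 1.24 and 1.10 instead of 3.50, 3.37 and 3.18. That fit keeps a single ovary2 library, so it holds no spread within ovary2. On scaffold 21 (1422010 to 1424347, retained) densities were 33.0 and 22.0 in ovary1, 94.6 in ovary2 rep1 and 537 in ovary2 rep2. On scaffold 65 (1025785 to 1027175) densities were 64.7 and 32.0 in ovary1 and 122 and 910 in ovary2. On scaffold 39 (778238 to 780068) they were 114 and 37.6 in ovary1 and 169 and 1228 in ovary2. These 2 clusters did not pass with TMM factors (edgeR adjusted p = 0.0647 and 0.0754).

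**Figure D4:**
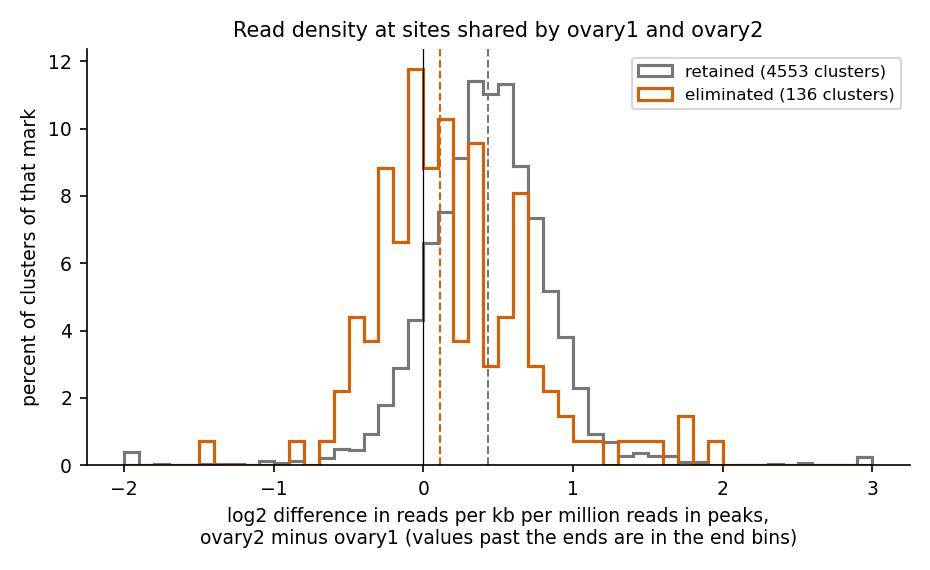
Percent of shared clusters of each mark by their fitted log2 difference in read density, ovary2 minus ovary1; dashed lines are the medians of retained (0.43) and eliminated (0.11) clusters. The retained median lies near that of all clusters (0.42), and the eliminated median lies below it.

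Eliminated DNA carried a larger share of the reads in ovary1. Peaks marked eliminated were 379 in ovary1 (3.17% of peaks) and 311 in ovary2 (3.23%), and 2.81% and 2.66% of the length in peaks. They held 6.63% and 7.41% of the reads in peaks of the ovary1 libraries and 5.23% and 5.34% of those of ovary2. The 95% Wilson intervals of these shares, from 6.61 to 6.66 and 7.37 to 7.45 in ovary1 and from 5.20 to 5.27 and 5.30 to 5.37 in ovary2, cover counting error only. The mean was 7.02% ± 0.55 in ovary1 and 5.28% ± 0.07 in ovary2 (SD, n = 2 each). Of the 12 lists only testis3 had libraries further apart than these means, with 8.81% and 3.82%. Both ovary1 libraries lay above both ovary2 libraries. An exact permutation test (two-sided) gave p = 0.333, and 2 libraries against 2 can give no smaller value. Without the eliminated peak with the most reads in each list the difference was -1.64 instead of -1.74 percentage points. In both lists eliminated peaks were denser than retained ones, with median densities of 42.0 against 27.8 in ovary1 and 53.2 against 40.2 in ovary2.

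Eliminated DNA was also shared a little less. Of the length of eliminated peaks 32.9% was shared in ovary1 and 46.3% in ovary2, against 40.3% and 53.5% of retained peaks. Eliminated clusters had a median log2 difference of 0.11, against 0.43 in retained clusters, which is -0.31 and 0.01 relative to the median of all. With reads in peaks 4 of 136 eliminated clusters (2.94%) were higher in ovary1, against 1.26% of all clusters, and 30 (22.1%) higher in ovary2, against 41.3% (edgeR, adjusted p under 0.05). With TMM factors 13 (9.56%) were higher in ovary1, against the 2.41% of all clusters, and 2 (1.47%) higher in ovary2, near the 1.60% of all (edgeR, adjusted p under 0.05). Among clusters with at least 200 bp in peaks of each list these were 6 and 0 of 135, against 23 and 9 of all 4601. With TMM factors and without either ovary1 library no eliminated cluster passed, without ovary2 rep1 50 and 14 passed and without ovary2 rep2 23 and 3, while the median stayed 0.24 to 0.33 below that of all clusters. Windows with at least 500 bp in peaks of both lists gave a like picture, but they draw on the same peak lists and libraries as the clusters. Neighbouring windows are not independent. In 77.2% of the windows the libraries of the lists did not overlap. With TMM factors 17 of 138 eliminated windows were higher in ovary1 (12.3%, against 0.954% of all 4194) and 3 higher in ovary2 (2.17%, against 0.405%). With reads in peaks 16 (11.6%) were higher in ovary1, against 0.954% of all, and 41 (29.7%) higher in ovary2, against 48.8%. Leaving out ovary1 rep1, ovary1 rep2, ovary2 rep1 or ovary2 rep2 changed the TMM count higher in ovary1 to 10, 9, 52 and 30, of 14, 17, 683 and 174 among all windows.

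Scaffolds whose peaks are all marked eliminated were called in both directions. On scaffolds, 7 of 273 were higher in ovary1 with either scaling (2.56%), and 198 (72.5%) were higher in ovary2 with reads in peaks and 2 (0.733%) with TMM factors. The libraries did not overlap on 86.8% of scaffolds. Of the 15 wholly eliminated scaffolds tested, 4 were higher in ovary1 with either scaling (26.7%). With reads in peaks 8 (53.3%, against 72.5% of all) were higher in ovary2, and with TMM factors 1 (6.67%, against 0.733%). Scaffold 303 (119 kb) had densities of 303 and 356 in the ovary1 libraries and 75.1 and 72.0 in the ovary2 libraries, a log2 difference of -2.16 ± 0.11 (SE, edgeR adjusted p = 0.000689). Its cover was lower in ovary1 (3.94%) than in ovary2 (7.90%), so fewer bases held more reads. Scaffold 127 (503 kb) had 115 and 117 against 66.0 and 64.6. Scaffolds 250 and 163 were the other 2, with log2 differences of -0.65 and -0.41. Scaffold 129 (519 kb) was the one higher in ovary2 with both scalings, with 91.9 and 107 against 224 and 218 (log2 difference 1.15 ± 0.09 SE, edgeR adjusted p = 0.000838). With TMM factors all 5 kept their direction and had adjusted p of 0.00142 to 0.0319 (edgeR). Without ovary1 rep1 or without ovary1 rep2, 2 wholly eliminated scaffolds passed with TMM factors as higher in ovary1 and none as higher in ovary2 (edgeR, with 5 of 15 under an unadjusted p of 0.05 in each).

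Neighbouring peaks marked eliminated, taken over all 12 lists, were joined into blocks. Of 67 blocks 35 held peaks of both lists, 11 of ovary1 only, 3 of ovary2 only and 18 of neither. In the 35 blocks with peaks of both lists, reads per 1000000 reads in peaks were higher in both ovary1 libraries than in either ovary2 library in 21, and the reverse held in 9. On the 227 wholly retained scaffolds with peaks of both lists these were 104 and 99, a description with no test. The longest block (1583 kb, scaffold 35, peaks from 89994 to 1634608) had 5023 and 7059 reads per 1000000 in ovary1 and 2301 and 2256 in ovary2, while its cover was 3.57% and 2.45%. Block lengths of 1101 kb (scaffold 84) and 843 kb (scaffold 10) came with smaller gaps, of 2846 and 3075 against 2560 and 2805 and of 2415 and 2355 against 2594 and 2803. The 855 kb block on scaffold 54 had 5120 and 6680 against 3678 and 2475. Scaffold 129 had 3343 and 3903 against 6169 and 6017, and was the fifth of the 5 longest.

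**Figure D5:**
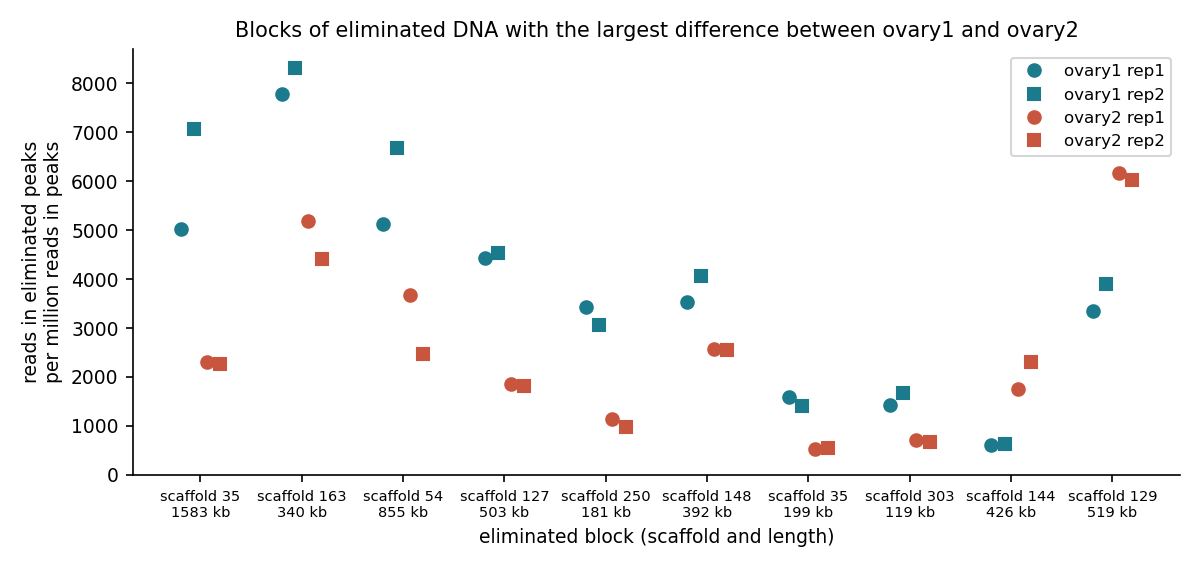
Reads in eliminated peaks per 1000000 reads in peaks of the library, in each ovary1 and ovary2 library, for the 10 eliminated blocks with the largest difference of the means. In 8 blocks both ovary1 libraries lie above both ovary2 libraries, and on scaffolds 144 and 129 the order is reversed.

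A few sites with very many reads lay in eliminated DNA. On scaffold 35 the ovary1 peak at 1280440 to 1281678 alone held 7332 and 5763 reads, or 2311 and 3480 per 1000000 reads in peaks, and no ovary2 peak lay on it. On scaffold 174 (119913 to 122562) an ovary1-only peak held 5500 and 3609 reads, and on scaffold 127 (278115 to 283353) one held 5372 and 3121. On scaffold 129 the ovary2-only peaks at 225681 to 226595 and 268268 to 270186 held 2170 and 2837 and 1936 and 2387 reads. Of the 10 eliminated peaks with the most reads, 5 from each list, 8 lay wholly inside testis1 peaks, 6 wholly inside 5day peaks and 6 had no cover in ovary3. The ovary2 peak with the most reads, on scaffold 126 (362129 to 373719), was shared and went the other way, with 39.5% in testis1, 0% at 5day and 100% in ovary3. Across the 227 ovary1-only peaks marked eliminated, 66.1% met a testis1 peak and 57.7% an ovary3 peak. Of the 157 such ovary2-only peaks, 29.3% met testis1 and 84.7% ovary3, the same order as in retained DNA.

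The ovary2 libraries disagreed more widely than those of ovary1, and most at a small set of sites. The SD of the log2 ratio of rep1 to rep2 was 0.385 in ovary2 against 0.245 in ovary1 over clusters. Over scaffolds it was 0.288 against 0.137. Of 9320 ovary2 peaks of at least 200 bp, 29 had a density over 4-fold higher in rep2 than in rep1, and 1 the reverse. In ovary1 these numbers were 1 and 2 of 11422. The 29 peaks held 0.319% of the rep1 reads and 1.71% of the rep2 reads, and 1 of them is marked eliminated. The most extreme by reads was on scaffold 39 (778261 to 779956), with 426 reads in rep1 and 3885 in rep2. The next, on scaffold 189 (146232 to 147389), had 359 and 2980, and it sets the high fitted value of that scaffold (log2 difference 2.75 ± 0.69 SE, edgeR adjusted p = 0.0194 with reads in peaks and 0.177 with TMM factors).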

How the data were processed

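CENP-A ChIP-seq of 2 ovary samples was compared, with the other 10 CENP-A lists read at their sites. Input, CENP-C and histone mark libraries were not analysed here. Per the submitters' processing notes, the tools include Bowtie2 and MACS2. Their versions and settings are not given in the sources used here. Columns hold a peak's scaffold, start, end, CENP-A coverage in 2 replicates and mark, per the file headers. The headers do not say whether coverage means reads or read pairs, and the values were taken here as read counts. The deposited columns are whole-number counts per peak, not normalized. Whether starts count from 0 or 1, and how reads that map to several places were treated, is not given in the sources used here. Depth is known only within peaks. No genome sequence was used here.

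Width is end minus start. Overlap needed 1 bp. Clusters are peaks of both lists joined by overlaps. Windows are 20 kb (at least 5 kb at scaffold ends), scaffold length is the last peak end over all lists, and reads of a peak were spread evenly over it. Blocks end midway between runs of opposite marks. Read counts of clusters, windows and scaffolds (mean of at least 10 reads, and at least 500 bp in peaks of each list for the last 2) were tested with edgeR 4.0.16 (R 4.3.3, glmQLFit and glmQLFTest), with an offset for the reads in peaks of the library and the bp in peaks of the list. Simulated clusters recovered 91% of 2-fold and 100% of 4-fold changes, with 2.05% of calls false. They had the same dispersion in both lists (0.0174) and no overall shift in density, and changes were put only in clusters with more reads. The lists themselves differ in spread and are shifted, so these rates do not give the power or error of the tests. DESeq2 1.42.0 was an alternative. Named regions were the 5 clusters of largest difference past the threshold each way, the 5 longest runs of windows differing by at least 30 points, the 3 scaffolds of at least 200 kb with the widest gaps each way, the 5 longest list-only peaks and the 5 longest eliminated blocks. Other regions, among them the wholly eliminated scaffolds and the single sites with most reads, were chosen after their values were seen. The comparison and the lists were chosen with earlier results of these data known.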

Additional observations from a re-analysis of the deposited data

How the results depend on the processing

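Each list pools 2 libraries of different read layout, overlaps have no replicate, and depth limits what narrow peaks can show. Under every alternative run for peak sharing, the lists shared fewer than 60% of peaks, though the stricter overlap rules could only lower the share. Overlap of at least 50% of the shorter peak left 39.3% of ovary1 and 51.6% of ovary2 peaks shared (Jaccard 0.283), and overlap of at least 50% of both 19.0% and 23.7% (0.152). Peaks above the median density of their list gave 38.7% and 50.6% (0.290), with median widths of 1793 and 1679 bp and covered lengths of 17.0 and 11.7 Mb. Equal covered length gave 51.9% and 46.9% (0.304), and peaks of at least 200 bp 45.3% and 58.1% (0.297). With other lists also at equal length, the excess at ovary2-only DNA was -39.4 points in testis1, 31.6 in ovary3 and 24.7 at 0hr. The eliminated share stayed lower in ovary2 in all alternatives, by -2.13 to -1.35 points when a library was left out.

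Counts of calls turned on scaling, on peak length and on which library was left out. A fit without a library takes its spread from the pair of the other list alone. Clusters higher in ovary1 numbered 113 with TMM and 121 with DESeq2 size factors, and those higher in ovary2 75 and 76. DESeq2's Wald test gave 1139 clusters higher in ovary2, and clusters with at least 200 bp in each list, chosen after seeing the data, 23 higher in ovary1. Windows higher in ovary2 numbered 17 with TMM and 32 with size factors, against 60 higher in ovary1 with size factors, and scaffolds 2 with either. Requiring 2000 bp left 19 windows higher in ovary1. Without division by peak length, 1099 clusters, 1203 windows and 104 scaffolds were higher in ovary1. Higher in ovary2 under that setting were 1932 clusters, 1830 windows and 81 scaffolds. Leaving out 1 library gave 0 to 263 clusters higher in ovary1 and 0 to 2554 in ovary2, 1 to 213 and 3 to 2603 windows, and 4 to 13 and 115 to 231 scaffolds. Without division by length the 5 clusters furthest to ovary1 turned to log2 differences of 4.36, 4.86, 3.16, 3.28 and 2.80, the cluster on scaffold 178 to 0.69, and 4 of those furthest to ovary2 to -4.76, -3.63, -3.78 and -3.93.

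The labels do not number the libraries, and same-numbered columns did not deviate together (r = -0.12 over clusters, -0.10 over windows, -0.22 over scaffolds). A replicate block gave 65 and 1934 clusters, 53 and 2105 windows and 7 and 181 scaffolds higher in ovary1 and ovary2. With crossed numbers, chosen after seeing the data, clusters were 65 and 1817.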
